A study of Drosophila melanogaster with 21 samples.

Results

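The comparison described here sets females dissected 6 h after mating against females dissected at 0 h, that is, right after mating had ended. It holds 9 of the 21 arrays of the series, 3 labelled 6 h and 6 labelled 0 h, taken by the time given in the labels. All 13966 probe sets other than controls were compared, and 10844 genes were represented by their brightest probe set. The series profiled tract RNA from Drosophila melanogaster females on single-colour oligonucleotide arrays. The other 12 arrays held tracts of unmated females and of females 3 h or 24 h after mating. Both groups compared were mated, 3 days old and held at 23 C, so that the groups differ in time since mating as far as the labels state. Each array held the pooled tracts of 12 to 40 females, dissected to keep the upper uterus, the organs that store sperm and the accessory glands. The labels used here give no strain and nothing on the males.

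The lower tract of the fly female receives the ejaculate, stores sperm in the seminal receptacle and the paired spermathecae, and passes the egg from the oviduct to the uterus. Secretory cells of the spermathecae and of the female accessory glands release proteases and other proteins into the lumen. Mating is known to raise ovulation and egg laying and to alter expression of secreted enzymes and immune genes in this tissue. The comparison of 6 h with 0 h asks which transcripts of the mated tract differ some hours after mating from their level at its end.

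Values are array signals on a linear scale, or log2 of them where stated, and a change is the mean log2 signal at 6 h minus that at 0 h. Over the 21 arrays, medians of signal ran from 35.6 to 57.7, and no detection call was used, so that signals near or below that range are dim and have uncertain folds. Send1, a spermathecal endopeptidase gene, was bright on all 9 arrays, between 3940.2 and 12277.4, while the tract markers Gld, lz, Hr39 and Octbeta2R had mean log2 levels of 3.81, 2.61, 4.53 and 3.87 at 6 h, below the array medians of signal. The labels number the arrays, and blocks of neighbouring numbers are treated as runs, although no label calls them so. Run 4 comprised 0 h replicates 1 and 2 with 6 h replicate 1, run 5 comprised 0 h replicates 3 to 6 with 6 h replicate 2, and run 6 comprised 6 h replicate 3 without any 0 h array. Run accounted for 97.1% of the first principal component of the 9 arrays and time for 16.8%. Of the second component run accounted for 78.3% and time for 47.9%. The components held 35.4% and 24.3% of the variance, and the shares of run and time overlap because the 2 are partly mixed.

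One array of each group stood apart. The third 6 h array (replicate 3), the 1 array from run 6, lay alone on the first component and had the lowest median signal, 35.6. The sixth 0 h array (replicate 6) had a summed signal of 34230 over 18 chorion and vitelline membrane genes, which build the eggshell in the ovary, against 1127 to 1626 on the other 5 arrays at 0 h and 1140.5 to 1302 at 6 h. On it Cp36, a chorion protein gene, had a signal of 16070.3, against at most 269.9 on the other 0 h arrays. The part this array plays in the results below was not tested beyond giving values without it. In bulk tissue, fewer cells of a type and less RNA per cell cannot be told apart.

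At an adjusted p under 0.05, 21 probe sets were higher at 6 h (0.15% of those tested) and 4 were lower (0.0286%). Counted by gene, 19 rose (0.175% of 10844 genes) and 2 fell (0.0184%). At an unadjusted p under 0.05, 582 genes were higher (5.37%) and 611 lower (5.63%). Among the genes that rose were PGRP-SC2 and Listericin of the immune response, the enzyme genes Send2, CG17134 and Ect3, the small heat shock genes l(2)efl and Hsp26, and esc, RPA2 and Pen, whose products act in or at the nucleus. The median change over all genes was -0.07.

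Genes of the immune response that rose were PGRP-SC2 and Listericin. PGRP-SC2 encodes an amidase that cleaves peptidoglycan of the bacterial wall. Its signal at 0 h ran from 176.9 over a median of 239.8 to 294.5, and at 6 h it was 1364.5, 2442.3 and 2301.1. The groups lay far apart, with the dimmest 6 h array still several times brighter than the brightest at 0 h. PGRP-SC2 rose by 3.11 ± 0.41 (SE) on the log2 scale, 8.63-fold, with an adjusted p of 0.00236. Listericin, an antibacterial protein gene, had signals of 45.3 to 132.4 at 0 h with a median of 92.05, and of 419.7, 641.2 and 328.9 at 6 h. The groups did not overlap, and the rise was 2.44 ± 0.49 with an adjusted p of 0.0431.

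Other immune genes did not pass. Of 26 measured genes of the Toll and Imd pathways and peptidoglycan recognition, PGRP-SC2 was the 1 that passed, and the median change of the list was -0.36. PGRP-LB, another amidase gene of this family, had a change of -0.13. None of 13 antimicrobial peptide genes passed, and none had an unadjusted p under 0.05. Their median change was -0.18. Drs, the Toll-induced antifungal peptide gene, stayed bright with mean log2 levels of 14.11 at 0 h and 13.70 at 6 h, and its change of -0.41 had an adjusted p of 0.782. For the antimicrobial peptide genes no difference was thus detectable with these arrays, which does not show that their levels were equal.

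The genes of secreted or lysosomal enzymes and of lipid handling that rose were Send2, CG17134, Ect3 and CG11426. Send2, a serine endopeptidase gene of the spermatheca, ran from 172.3 over a median of 397.3 to 1007.5 at 0 h and was 6797.3, 7167.8 and 10118 at 6 h. Every 6 h array was above every 0 h array, and within the 0 h group both arrays of run 4 were the brightest. Send2 rose by 4.34 ± 0.70, 20.3-fold, with an adjusted p of 0.00958. CG17134, an aspartyl protease gene of the pepsin family, was dim at 0 h, from 2.6 over 12.75 to 39.7, and reached 1199.8, 283.5 and 260.6 at 6 h. It rose by 5.42 ± 1.00 with an adjusted p of 0.0271, and by 4.00 when 16 units were added to each signal before the log.

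Ect3, a beta-galactosidase gene, had signals of 85.2 to 162.5 at 0 h with a median of 113.9, and of 631.2, 919.7 and 1489.7 at 6 h. The groups did not overlap, and Ect3 rose by 3.08 ± 0.41, 8.44-fold, with an adjusted p of 0.00236. CG11426, a lipid phosphate phosphatase gene of the wunen family, went from 20.5 to 61.3 at 0 h, with a median of 41.5, to 137.9, 240.9 and 337.8. Its rise was 2.55 ± 0.49 with an adjusted p of 0.0374. Phk-3, a pherokine gene of the chemosensory protein family, had 98.9 to 183.9 at 0 h and 529.1, 986.9 and 479.9 at 6 h, and rose by 2.15 ± 0.33 with an adjusted p of 0.00734.

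The rise of Send2 was not shared by the other genes of the secretory list. Of 11 measured genes of spermathecal and accessory gland secretion, Send2 passed and the median change was -0.54. Send1 had signals of 7965.5 to 12277.4 at 0 h and of 3940.2, 5871 and 8794.3 at 6 h. These groups overlapped, and its change of -0.79 had an adjusted p of 0.431. Of 59 genes of serine proteases and serpins found by name, none passed, and the median change was -0.15. An unadjusted p under 0.05 was reached by 1 upward (1.69%) and 2 downward (3.39%), against 5.37% and 5.63% of all genes.

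The small heat shock protein genes l(2)efl and Hsp26 rose. l(2)efl, a member of the alpha-crystallin family that acts as a chaperone, was bright throughout, from 1208.6 over 1424.85 to 1712.3 at 0 h and at 3640.4, 3610.4 and 4591.5 at 6 h. It rose 2.77-fold, by 1.47 ± 0.26, with an adjusted p of 0.0249. Hsp26 had signals of 7.5 to 20.3 on 5 of the 0 h arrays and 294.7 on the sixth, and of 1586.8, 992.1 and 365.3 at 6 h. The groups did not overlap, although the sixth 0 h array came close to the third 6 h array. Hsp26 rose by 5.25 ± 1.05 with an adjusted p of 0.0431, and without the sixth 0 h array by 6.01 with an adjusted p of 0.00256. With run as a block its adjusted p was 0.11.

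Hsp27, another gene of this family, did not pass, with a change of 2.06 ± 0.45 and an adjusted p of 0.0698. Without the sixth 0 h array it passed, at 2.30 and 0.0182. Of 11 measured heat shock and chaperone genes 2 passed, both upward, against 0.175% of all genes. A change above 0 was seen in 7, against 45.1% of all genes, and the median was 0.84. The lowest change was -0.90. For 3 of the 11 the groups did not overlap upward and for 1 downward, against 3.36% and 2.46% of all genes. Without the third 6 h array neither l(2)efl nor Hsp26 passed, with adjusted p of 0.0786 and 0.054, and the median was 0.40. The larger chaperone genes Hsp60A and Hsp68 had changes of 0.84 and 0.86, with adjusted p of 0.509 and 0.653. The summed signal of the list was 6374.7 to 7657.9 at 0 h and 9739.4 to 10748.3 at 6 h, without overlap. The sum includes l(2)efl and Hsp26, the 2 that passed, so it does not show a rise of the other members.

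**Figure D1:**
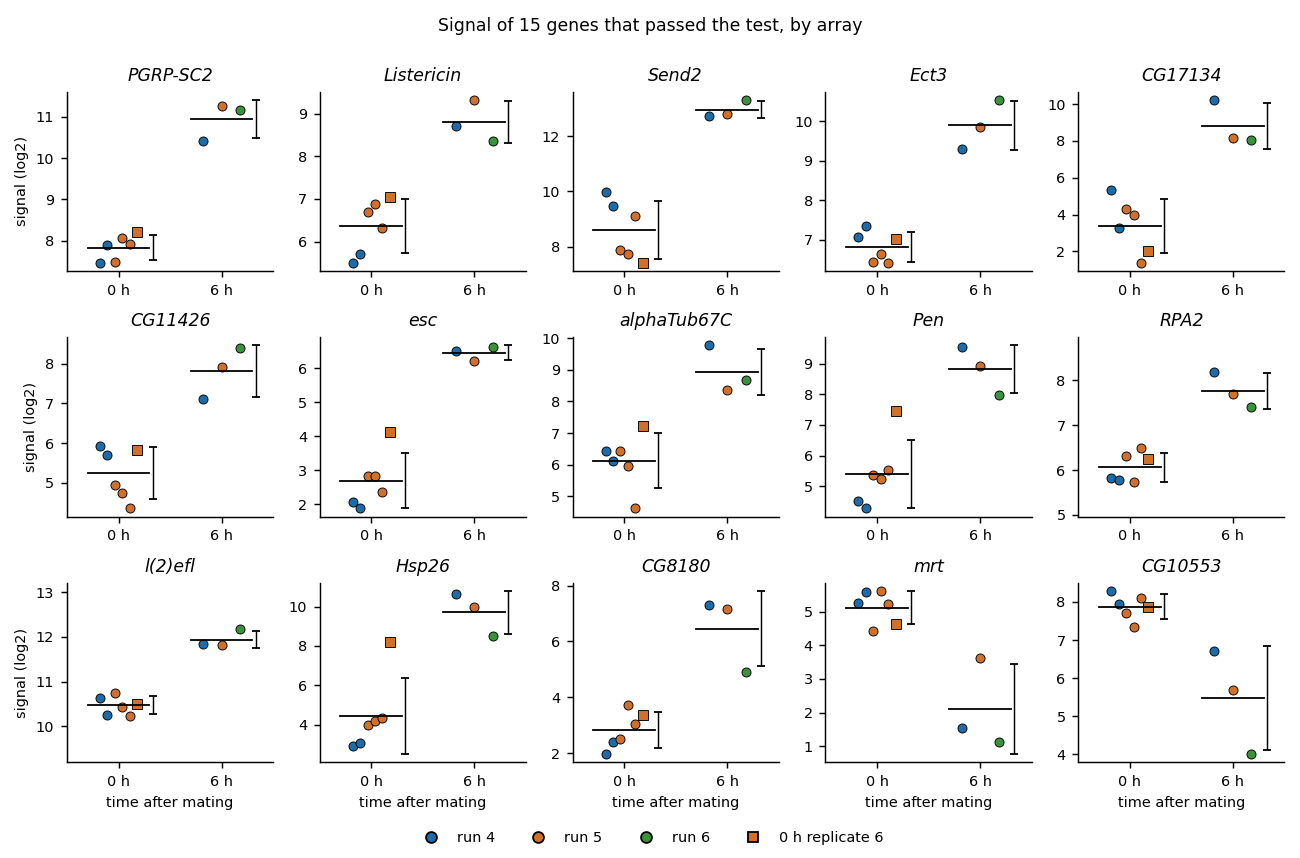
Signal (log2) of 15 genes that passed the test on each array at 0 h (n = 6) and 6 h (n = 3), coloured by run, with a square for the sixth 0 h array. Horizontal lines are group means and bars are SD; in each panel the 0 h and 6 h arrays are separate, and the square is the highest 0 h array for, among others, esc, alphaTub67C, Pen and Hsp26.

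The plot of signals by array shows 13 of the genes that rose and the 2 that fell. For Send2, esc and l(2)efl the 3 arrays at 6 h lie close to each other in relation to the step from 0 h. For mrt and CG10553 the 6 h arrays spread more widely than the 0 h arrays.

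Other genes that rose are known from chromosomes, the cell cycle and the nucleus, or, for alphaTub67C, as maternal. esc, a subunit of the Polycomb complex that methylates histone H3, had signals of 3.7 to 17.6 at 0 h with a median of 6.15, and of 92, 73.9 and 99.2 at 6 h. The 3 arrays at 6 h were nearly equal, and esc rose by 3.76 ± 0.53 with an adjusted p of 0.00236. Because it is dim at 0 h, its change was 2.17 with 16 units added, still past the threshold. alphaTub67C, the maternal alpha-tubulin gene, had 24.5 to 149.9 at 0 h, the highest on the sixth array, and 873.2, 329.5 and 407.3 at 6 h. It rose by 2.81 ± 0.46 with an adjusted p of 0.011, and its adjusted p with run as a block was 0.0744.

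RPA2, a subunit of the complex that binds single-stranded DNA in replication and repair, had signals of 53.3 to 89.4 at 0 h, with a median of 66.35, and of 291.6, 207.4 and 168.6 at 6 h. It rose 3.24-fold, by 1.70 ± 0.28, with an adjusted p of 0.011. Pen, an importin alpha that carries proteins into the nucleus, had 19.3 to 175 at 0 h and 740.3, 488.7 and 254.6 at 6 h. Its rise was 3.43 ± 0.62 with an adjusted p of 0.0249, and 175 was the signal of the sixth 0 h array, the next highest being 45.7. Nop56, a core protein of the particles that guide methylation of ribosomal RNA, had signals of 190.1 to 290.9 at 0 h and of 639.3, 515.2 and 522.8 at 6 h. It rose by 1.28 ± 0.23 with an adjusted p of 0.0249.

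Rca1, an inhibitor of the anaphase-promoting complex, rose by 2.15 ± 0.42 with an adjusted p of 0.0424, and Phf7, a PHD finger gene known from the male germline, by 3.18 ± 0.64 with an adjusted p of 0.0431. With run as a block their adjusted p were 0.0828 and 0.123. borr encodes a subunit of the chromosomal passenger complex, which guides chromosome segregation. Its dimmer probe set passed, with 6.1 to 184.2 at 0 h against 398, 317.5 and 136.9 at 6 h, a change of 4.23 ± 0.85 and an adjusted p of 0.0431. This was the 1 probe set among the 25 whose groups overlapped, through the sixth 0 h array, and the next highest 0 h signal was 11.3. The brighter probe set of borr had a change of 0.80 with an adjusted p of 0.677, so the 2 probe sets disagree and the call for borr is uncertain.

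Of the genes known by number only, 3 more rose. CG8180 had signals of 3.9 to 13.1 at 0 h, with a median of 6.95, and of 158.9, 141.5 and 29.8 at 6 h. The groups did not overlap, the third 6 h array was the lowest of its group, and the rise was 3.62 ± 0.50 with an adjusted p of 0.00236. With 16 units added the rise was 2.20. CG18004 rose by 2.51 ± 0.48 with an adjusted p of 0.0374, and CG14687 by 1.55 ± 0.31 with an adjusted p of 0.0431, or 0.0685 with run as a block. One more probe set that was higher at 6 h has no single gene symbol.

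Few genes fell. mrt had signals of 21.5 to 48.6 at 0 h, with a median of 37.95, and of 2.9, 12.3 and 2.2 at 6 h. The groups did not overlap, and the log2 signal of mrt fell by 3.02, with an SE of 0.55 and an adjusted p of 0.0249. With run as a block its change was -2.40 with an adjusted p of 0.0521, and without the third 6 h array -2.54 with 0.106. The signals of mrt at 6 h lie below the array medians, and with 16 units added its change was -1.27 with an adjusted p of 0.0387. CG10553 had 162 to 311.6 at 0 h and 104.5, 51.8 and 16.1 at 6 h, and fell by 2.41, with an SE of 0.45 and an adjusted p of 0.0326. Without the third 6 h array the change of CG10553 was -1.67 with an adjusted p of 0.118. Its 3 arrays at 6 h differed from each other more than the 6 at 0 h did. The other 2 probe sets that were lower are one without a single gene symbol and the dimmer probe set of RluA-1, a gene of the pseudouridine synthase family. The latter went from 11 to 30.8 at 0 h down to 1.7, 5.3 and 1.5. Its change of -3.13 became -0.999 with an adjusted p of 0.166 once 16 units were added, and the brighter probe set of RluA-1 had a change of 0.29.

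Among genes that were lower at 6 h, the next 3 by p did not pass. Octbeta1R, a receptor for octopamine, the amine that drives ovulation in the fly, had signals of 25.4 to 49.9 at 0 h and of 8.2, 8 and 4.7 at 6 h. All 9 of these signals lie near or below the array medians, the groups did not overlap, and the change was -2.41 ± 0.51 with an adjusted p of 0.0602. CG3961 had a change of -2.50, and Cdc27, a subunit of the anaphase-promoting complex, one of -2.12, both with an adjusted p of 0.0602. With run as a block the adjusted p of Octbeta1R, CG3961 and Cdc27 were 0.123, 0.0371 and 0.149. Of 21 genes of octopamine, tyramine and sex peptide signalling none passed, and the median was -0.31. Of these, 3 had an unadjusted p under 0.05, all downward (14.3%, against 5.63% of all genes). Without the third 6 h array the 3 became 1.

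Genes of DNA replication and the cell cycle lay higher at 6 h as a group. Of 39 measured genes 1 passed, RPA2, but 35 had a change above 0, against 45.1% of all genes, and 17 had an unadjusted p under 0.05 upward and none downward, against 5.37% and 5.63% of all genes. The median change was 1.20, and within runs it was 1.79 in run 4 and 1.00 in run 5. For 8 of the 39 the groups did not overlap upward, against 3.36% of all genes. Without the sixth 0 h array this was so for 15 (38.5%, against 4.41%). The summed signal of the list on that array, 4887.9, lay inside the 6 h range of 4369.1 to 8901, while the other 0 h arrays reached at most 3211. The median of the list was 1.20, 1.30 and 0.84 after quantile normalization, median centring and the addition of 16 units.

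PCNA, the sliding clamp of DNA polymerase, had signals of 92.6 to 261.5 at 0 h and of 575.4, 354.3 and 314.5 at 6 h, without overlap. Its change was 1.41 ± 0.44 with an adjusted p of 0.21. dpa and Mcm5, subunits of the replicative helicase, had changes of 2.59 and 1.97, and Orc4, of the origin recognition complex, one of 2.12, with adjusted p of 0.112, 0.169 and 0.0739. CycB, the mitotic cyclin B, was 63.1 to 257.5 on 5 of the 0 h arrays, 966.7 on the sixth, and 1309.6, 1262.9 and 684.4 at 6 h. The sixth 0 h array thus lay inside the 6 h range, and the change of 2.23 had an adjusted p of 0.204.

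The list of oocyte and germline genes had no member that passed with all arrays. For several of its genes 0 h replicate 6 lay with the 6 h arrays. The list does not hold alphaTub67C, the maternal alpha-tubulin gene, or Phf7, known from the male germline, which both passed, as given above. Of 38 measured genes, 15 had an unadjusted p under 0.05 upward (39.5%, against 5.37% of all genes) and 2 downward (5.26%, against 5.63%). The median change was 0.68, or 0.88, 0.78 and 0.49 under those alternatives in the same order. osk, whose mRNA sets up the posterior pole of the egg, had 2.9 to 11.6 on 5 of the 0 h arrays and 104.8 on the sixth, and 186.5, 242.6 and 66.6 at 6 h. exu, needed to place bicoid mRNA in the oocyte, had 8.5 to 21.2 on those 5 arrays, 443.4 on the sixth, and 404, 563.2 and 519.3 at 6 h. Both genes were thus dim on 5 arrays at 0 h and as bright on the remaining one as in the 6 h group. With all arrays the changes of osk and exu were 4.30 and 4.33, with adjusted p of 0.112 and 0.087.

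Without the sixth 0 h array, 51 genes passed upward (0.47% of genes) and 5 downward (0.0461%), among them all 21 genes that passed with it. Of the oocyte and germline list 4 then passed, exu, osk, pgc and swa, with changes of 5.17, 5.07, 3.92 and 3.88. pgc represses transcription in the germ cell precursors and swa helps to place bicoid mRNA. The median of the list was then 0.80, 17 of 38 genes had an unadjusted p under 0.05 upward (44.7%, against 5.57% of all genes) and 2 downward (5.26%, against 5.22%), and 10 did not overlap upward (26.3%, against 4.41%). From the other lists CycB3, a cyclin of meiosis and mitosis, and RpS5b, a ribosomal protein gene copy used in the ovary, then passed at 4.13 and 4.73. This array was singled out after its values had been seen.

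The largest change among the genes that passed in that fit belonged to dhd, a thioredoxin gene of the female germline and early embryo. Its signal was 1.4 to 49.1 on 5 arrays at 0 h, 1605.7 on the sixth, and 4113.7, 2818.7 and 2467.7 at 6 h. The log2 signal had an SD of 1.88 over those 5 arrays, and the median at 0 h, 4.75, lies below the array medians. The size of the change is thus uncertain. The change was 9.05 with an adjusted p of 0.00728 without the sixth 0 h array, and 7.69 with an adjusted p of 0.0837 with it. Also passing without that array were hts, an adducin gene of the fusome and oocyte cytoskeleton, and feo, a microtubule bundling protein gene of the spindle midzone, at 4.12 and 3.94. These genes are named after their values were seen.

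The chorion genes did not go with the oocyte genes at 6 h. Of 18 measured chorion and vitelline membrane genes none passed with or without the sixth 0 h array, and none had an unadjusted p under 0.05. The summed signal of the oocyte and germline list was 2302 to 2956 on 5 of the 0 h arrays, 5077 on the sixth, and 6868, 6135 and 3562 at 6 h. The summed signal of the chorion list at 6 h stayed within the range of those 5 arrays, as given above. Whether germline transcripts in the dissected tissue have a part in the genes that rose was not tested.

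**Figure D2:**
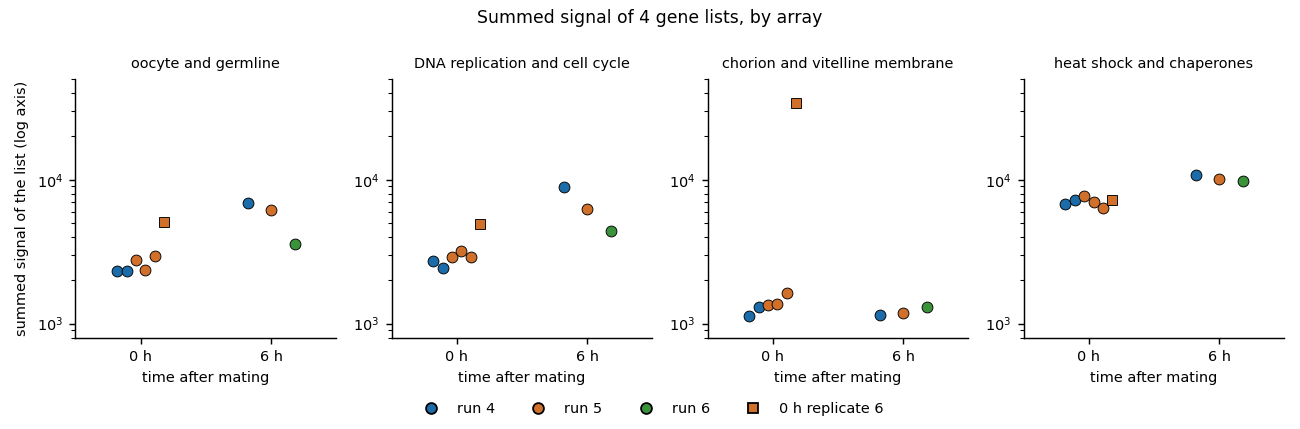
Summed signal of 4 gene lists (log axis) on each array at 0 h (n = 6) and 6 h (n = 3), coloured by run, with a square for the sixth 0 h array. The square is at 34230 for the chorion and vitelline membrane list, where all other arrays lie between 1127 and 1626, and is the highest 0 h array for the oocyte and the cell cycle lists.

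The plot of summed signals also shows that the 6 h arrays differ in their germline signal, with run 4 highest and run 6 lowest. For the heat shock list the 3 arrays at 6 h are close together and the sixth 0 h array lies within its group.

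**Figure D3:**
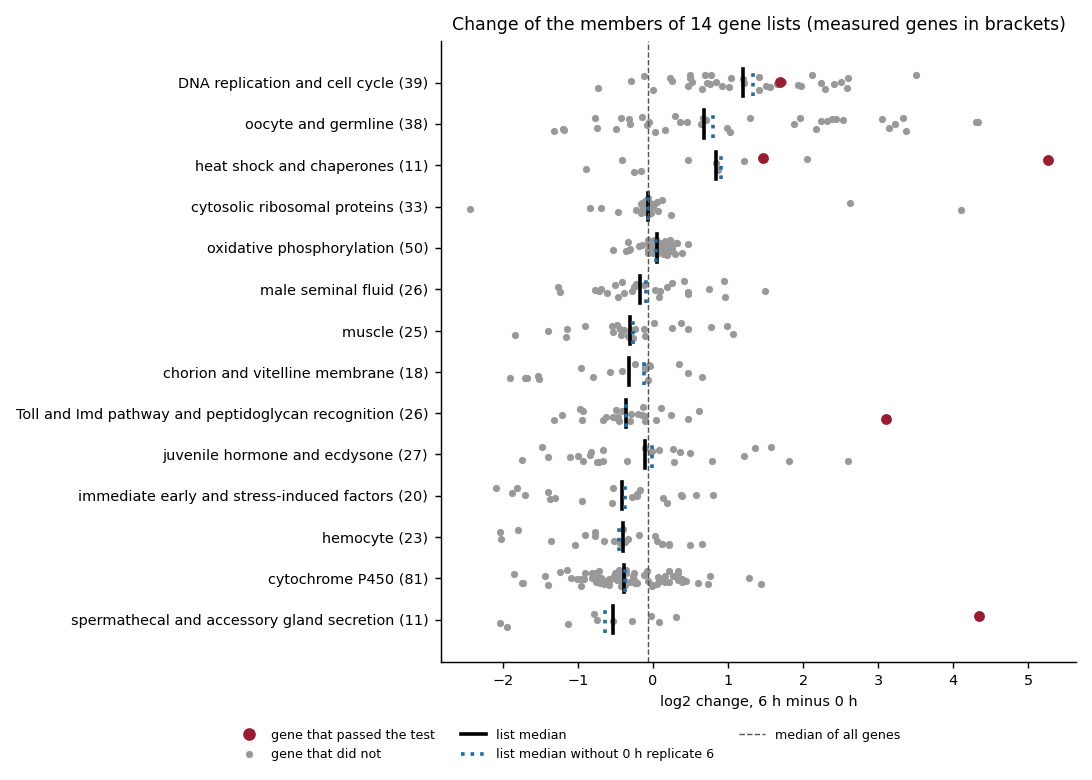
Log2 change from 0 h to 6 h of each measured gene in 14 lists, with the list median for all arrays (black) and without the sixth 0 h array (dotted). The medians of DNA replication and cell cycle (1.20), heat shock (0.84) and oocyte genes (0.68) lie right of the median of all genes (-0.07), and the other 11 lie between -0.54 and 0.05.

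Transcription factor genes of the immediate early and stress response lay lower. Of 20 measured genes none passed, but 7 had an unadjusted p under 0.05 downward and none upward, against 5.63% of all genes downward. Without the third 6 h array 3 of the 20 were so, against 4.03% of all genes. The median with all arrays was -0.41, and -0.26, -0.31 and -0.19 under the same 3 alternatives. The summed signal was 8073.8 to 11113.2 at 0 h and 4045.6 to 7237.4 at 6 h, without overlap. hry, the repressor Hairy, was bright and uniform at 0 h, from 1159.2 over 1263.4 to 1418.3, and was 334.9, 739.5 and 109.8 at 6 h. Its change was -2.09 ± 0.47 with an adjusted p of 0.0762, and -1.42 with an adjusted p of 0.0452 with run as a block. Atf3, a bZIP factor gene, had a change of -1.88 with an adjusted p of 0.115.

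Of the hormone genes none passed in the fit without a block, and with run as a block only Cyp18a1 did. jhamt, the methyltransferase that makes juvenile hormone, had signals of 81.7 to 212.8 at 0 h and of 734.7, 638.2 and 1143.7 at 6 h. The groups did not overlap, and the change of 2.60 ± 0.57 had an adjusted p of 0.0725. With run as a block the change of jhamt was 2.16 with an adjusted p of 0.161. Cyp18a1, a P450 that inactivates ecdysone, had 164.5 to 376.6 at 0 h and 96.5, 84.4 and 71.9 at 6 h. Its change was -1.74 ± 0.39 with an adjusted p of 0.0738, and -1.65 with an adjusted p of 0.0452 with run as a block. Of 27 genes of juvenile hormone and ecdysone, 2 had an unadjusted p under 0.05 upward (7.41%) and 5 downward (18.5%). Of 81 P450 genes 2 were so upward (2.47%) and 9 downward (11.1%). Over all genes the shares were 5.37% and 5.63%. Without the sixth 0 h array the 5 hormone genes became 2. The lists had medians of -0.10 and -0.39. The first of these was 0.06 after quantile normalization.

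Most lists of housekeeping functions stayed near the median of all genes, and glycolysis lay lower. Of 50 genes of oxidative phosphorylation none had an unadjusted p under 0.05, and the median was 0.05. Of 33 cytosolic ribosomal protein genes the median was -0.07, with RpS5b (4.10, adjusted p = 0.0857) and RpS28a (-2.44, adjusted p = 0.0813) at the ends. After median centring the ribosomal median was 0.03. Proteasome genes had a median of 0.07 and secretory pathway genes one of 0.19. None of their 39 and 37 members passed. At an unadjusted p under 0.05, 4 and 2 were upward (10.3% and 5.41%, against 5.37% of all genes). Downward there were 1 and 1, and without the third 6 h array 1 and 0 were upward. The 13 glycolysis genes had a median of -0.38, 1 had a change above 0, and none passed. Of these genes 2 had an unadjusted p under 0.05, both downward (15.4%, against 5.63% of all genes).

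Markers of other cells were compared in the same way, and none of their members passed. Muscle, hemocyte, neuronal, and yolk and fat body genes had medians of -0.31, -0.40, -0.61 and -0.26. Of 25, 23, 23 and 16 measured, 2, 5, 1 and 3 had an unadjusted p under 0.05, all downward. These are 8%, 21.7%, 4.35% and 18.8%, against 5.63% of all genes. Without the third 6 h array the counts were 0, 1, 1 and 2, against 4.03% of all genes. The summed hemocyte signal was 8531.2 to 10274.4 at 0 h and 7581.3 to 8419.1 at 6 h, without overlap. Male seminal fluid genes, made by the male accessory gland and carried with the ejaculate, had a median of -0.17. Of these 26 genes 2 had an unadjusted p under 0.05, both downward (7.69%). Their summed signal was 1895.1 to 5447.5 at 6 h and 898.2 to 4208.9 at 0 h, with the highest 0 h value on the sixth array. Sperm and testis genes had a median of -0.24, with 2 of 27 members at an unadjusted p under 0.05 in each direction (7.41%). After quantile normalization the medians of these last lists were 0.03 and 0.06. Among the lists not yet described, septate and adherens junction genes (-0.55), circadian clock genes (-0.57) and genes of insulin, TOR and FOXO signalling (-0.51) had the lowest medians. None of their 30, 13 and 20 members passed. At an unadjusted p under 0.05 were 4, 2 and 2 downward (13.3%, 15.4% and 10%), and 2 junction genes upward (6.67%). Without the third 6 h array the downward counts were 1, 1 and 0.

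The levels at the other times were set beside those at 0 h and 6 h for the genes that rose. PGRP-SC2 had mean log2 levels of 7.84 ± 0.30 (SD over 6 arrays) at 0 h, 10.12 ± 0.57 over 4 arrays at 3 h, 10.95 ± 0.46 over 3 arrays at 6 h, and 7.48 ± 0.66 over 3 arrays at 24 h. Send2 had 8.61, 13.28, 12.95 and 6.71 at the same times. Both were thus already high at 3 h, and the changes from 3 h to 6 h, 0.83 and -0.33, had adjusted p of 0.50 and 0.924. CG17134, CG11426 and CG14687 had the same order, with changes from 0 h to 3 h of 5.06, 2.70 and 1.60 that passed the test, and changes from 3 h to 6 h of 0.36, -0.15 and -0.06 that did not.

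Other genes were near their 0 h level at 3 h. Ect3 had mean log2 levels of 6.82, 6.78, 9.90 and 6.50 at these times, in order. Its changes from 3 h to 6 h of 3.12 and from 6 h to 24 h of -3.39 passed, with adjusted p of 0.00217 and 0.00339. esc, CG8180, RPA2 and Pen also passed from 3 h to 6 h, with 3.84, 3.75, 1.68 and 3.29, after changes of -0.08, -0.13, 0.02 and 0.14 from 0 h to 3 h. Of these 4 genes CG8180 passed again from 6 h to 24 h, with -3.64 and an adjusted p of 0.0143, while for esc, RPA2 and Pen the adjusted p were 0.096, 0.244 and 0.746. l(2)efl and Nop56 had neither pattern, with changes of 0.90 and 0.66 from 0 h to 3 h and of 0.56 and 0.63 from 3 h to 6 h, of which none passed. The comparisons share arrays and were fitted without run, so these values are a description.

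**Figure D4:**
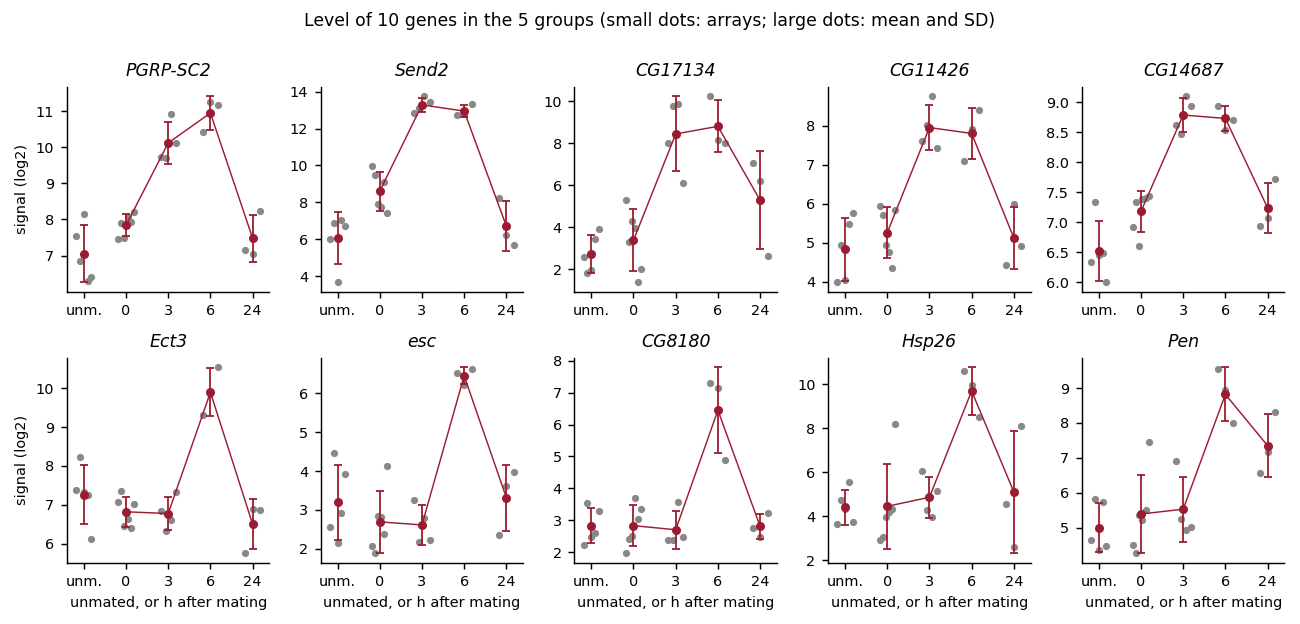
Level (log2 signal) of 10 genes that passed between 0 h and 6 h, in 5 arrays of unmated females, 6 right after mating, 4 after 3 h, and 3 each after 6 h and 24 h; small dots are arrays, large dots and bars are mean and SD. The top row was already high at 3 h, with Send2 at 13.28, and the bottom row was near its 0 h level at 3 h, with Ect3 at 6.78.

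The numbers of probe sets that passed in the other comparisons of times give the scale. From 0 h to 3 h, 7 were higher and 2 lower, from 3 h to 6 h, 28 and 35, and from 6 h to 24 h, 1 and 4. These fits did not include run. The 3 h arrays lay in runs 2, 3 and 5, the 6 h arrays in runs 4, 5 and 6. The 24 h arrays lay in runs 3, 4 and 6, so time and run are partly mixed in these counts.

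With run as a fixed block 42 probe sets were higher (0.301%) and 18 lower (0.129%), or 38 genes (0.35%) and 12 (0.111%), and 18 of the 25 probe sets passed in both fits. The block fit added 24 genes upward and 11 downward, from which a few are named here after their values were seen. Mps1 and mad2, of the spindle checkpoint, had changes of 3.00 and 4.12 with adjusted p of 0.0353 and 0.0452. For tor, the receptor that patterns the ends of the embryo, they were 2.46 and 0.0452. On 6 h replicate 3 Mps1, mad2 and tor had signals of 53.9, 7.2 and 14.7, below their highest at 0 h, 61.2, 19.8 and 15.7. Their groups thus overlapped, and without a block their adjusted p were 0.087, 0.124 and 0.102. bys, which acts in ribosome assembly, and Polr1E, of RNA polymerase I, had changes of 1.15 and 1.31 in the block fit, with adjusted p of 0.0371 and 0.0492. Among those downward were hry and Cyp18a1, given above, and Gasp, a chitin-binding protein gene, at -1.66 with an adjusted p of 0.0371.

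All 21 genes that passed had the same sign within run 4 and within run 5, which for 10844 genes was so in 30.6% upward and 28.4% downward. These are arrays of the same fit, so the count is a description. PGRP-SC2 had differences of 2.73 in run 4 and 3.34 in run 5, Send2 of 3.01 and 4.76, Hsp26 of 7.65 and 4.78, and Nop56 of 1.62 and 1.10. mrt had -3.89 and -1.35, and CG10553 -1.41 and -2.06.

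**Figure D5:**
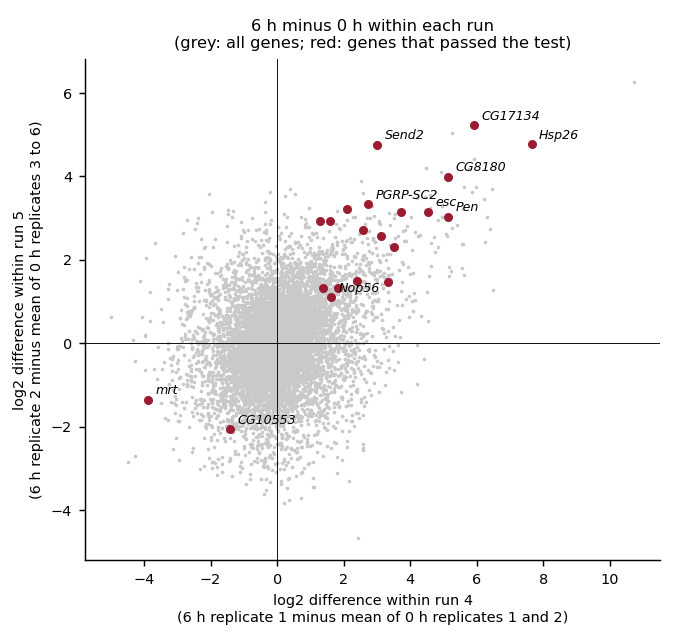
Log2 difference between 6 h and 0 h within run 4 (x axis) and within run 5 (y axis) for all genes (grey) and the 21 genes that passed the test (red). The red points lie in the upper right and lower left, with Hsp26 at 7.65 and 4.78 and mrt at -3.89 and -1.35.

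Calls near the threshold depended on single arrays. Leaving out 1 array, the 25 probe sets kept their call in 13, 9, 12, 16, 10 and 25 cases without 0 h replicates 1 to 6, and in 10, 7 and 12 cases without 6 h replicates 1 to 3. PGRP-SC2, Ect3, esc and CG8180 kept it each time, alphaTub67C, Send2 and Phk-3 in 8 of 9 fits, and RPA2 in 7. Hsp26, borr, Listericin, CG14687, CG18004 and Rca1 kept it in 1 of 9 fits. Without 6 h replicate 3, the probe sets of l(2)efl, CG11426, CG18004, Rca1, CG14687, Hsp26, Phf7, borr, Listericin, mrt, CG10553 and RluA-1 and 1 without a single symbol lost it. The direction of these 25 probe sets was the same in every such fit.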

How the data were processed

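RNA of pooled lower reproductive tracts was hybridised to 21 arrays, with 3 arrays at 6 h and 6 at 0 h after mating compared here. The deposited values are linear intensity for each probe set. RMA is named, per the submitters' processing notes, without a version, but the deposited intensity values are not on a log scale and share a 2% trimmed mean, so how the authors summarised probes is not settled. No detection calls were used. Precision is limited by how few arrays there are.

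Signals were log2-transformed as deposited, without a pseudocount or rescaling. Of 14010 probe sets 44 controls were left out. The platform annotation gave 12443 of the rest 1 gene symbol, 327 several and 1196 none, and symbols of 12394 were updated through RefSeq.

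limma 3.58.1 in R 4.3.3 fitted a mean for each of 5 groups over all 21 arrays, with 2-sided moderated tests of 6 h against 0 h, and Benjamini-Hochberg adjustment over 13966 probe sets at 0.05. All adjusted p come from limma. The p-values measure the spread between pools, which in the fit without a block includes differences between runs. Run (array numbers separated by gaps over 20) was a fixed or random block in alternatives. As a random block it gave a correlation of 0.311 between arrays of the same run, so these arrays are not fully independent. Named were all genes past the threshold, the 5 lower genes with the smallest p, and passing list members. Genes outside this rule were named after their values were seen. The members and lists were chosen with earlier results of these data known. Lists are described by counts and medians without a test. The fit was tested on simulated data. No 2 arrays of a group shared more than 0.494% of values, and each counted as 1 replicate.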

Additional observations from a re-analysis of the deposited data

Results flagged for a closer look

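For 10 of 63 genes examined, 1 of the 6 arrays at 0 h lay apart from the others by Dixon's test at the 95% level, which chance gives in about 1 of 20 groups. Many of the 63 were chosen with their values known. On 9 of them it was the highest value of 0 h replicate 6, at a log2 signal of 8.20 for Hsp26, 7.53 for borr, 8.79 for exu, 7.32 for swa, 6.15 for Mcm5, 6.88 for Cdk2, 13.97 for Cp36, 13.33 for Cp38 and 10.28 for Cp15. The nearest other 0 h array was at 4.34 for Hsp26, 3.50 for borr, 4.41 for exu, 4.37 for swa, 4.64 for Mcm5, 5.83 for Cdk2, 8.08 for Cp36, 5.94 for Cp38 and 4.92 for Cp15. The tenth was bys, with 0 h replicate 1 at 7.86 and the nearest array at 7.46. The cause was not tested.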

How the results depend on the processing

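No called gene or probe set changed direction under any alternative run. The counts moved most. Higher and lower probe sets, 21 and 4 as reported, were 32 and 3 with quantile normalization, 32 and 4 with median centring, 90 and 18 with 16 units added, 43 and 24 among the brighter probe sets, and 54 and 25 with run as a random block. They were 42 and 18 with run as a fixed block, 31 and 9 with a variance trend, 25 and 8 with array weights, 33 and 9 with the 3' to 5' ratio of control transcripts as covariate, and 22 and 2 with 1 probe set per gene. Restricted to the 9 arrays limma passed 5 and 3. The 5 were all among the 21 reported, but none of the 3 was among the 4 reported. In that fit CG8180 had an adjusted p of 0.0768. With run as a fixed block on the 9 arrays 0 and 0 passed, where 924 higher and 856 lower had an unadjusted p under 0.05. Leaving out 1 array gave 5 to 60 higher and 1 to 18 lower. Without both 0 h replicate 6 and 6 h replicate 3, chosen after seeing the data, they were 74 and 9. The causes of these shifts were not tested. The 3' to 5' log2 ratio was 3.28 ± 1.30 (SD, n = 6) at 0 h and 2.82 ± 0.73 (n = 3) at 6 h. No paired analysis was possible because the labels give no replicate numbers shared between the groups. Dim probe sets and 3 arrays at 6 h limit what can be detected.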
